A study of Caenorhabditis elegans with 8 samples.

Results

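The response of wild-type Caenorhabditis elegans to fasting was read from 2 of the 8 arrays of a study on microRNA machinery, fasting and lifespan. The 2 arrays were taken as the fasting and the fed sample of the wild-type strain N2, and all 22548 probe sets other than the array's controls were described, by the gene symbols of the platform annotation. Whole adult animals were kept at 20 °C and placed at day 0 on plates with FUDR, a drug that blocks the production of offspring. On day 2 they were moved to fresh FUDR plates that lacked food, for the fasting animals, or carried the bacterium OP50, killed by ultraviolet light, for the fed ones, and they were collected 2 days later, on day 4. The other 6 arrays hold the same pair of conditions in drsh-1(ok369), which lacks normal Drosha, in ain-1(tm3681), a mutant of a GW182-like protein of the silencing complex, and in daf-16(mu86), a mutant of the FOXO transcription factor of insulin signalling. Every animal had been exposed to FUDR, and fed animals ate dead bacteria, so neither group shows a breeding animal on living food.

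With 1 array for fasting and 1 for fed animals, the wild-type comparison has no replicates and allows no test of its own. Sizes are therefore given, as log2(intensity + 16) in fasting minus the same in fed animals, and a gene was counted as higher or lower at a 2-fold difference or more on this scale, that is, at a log2 change of 1. The added 16 makes the change of dim genes look smaller than it was. As whole animals were measured, fewer cells of a type and less RNA per cell cannot be told apart.

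An adult worm without food lives on what it has stored. Its intestine, which is at once gut, liver and fat depot, releases fatty acids from lipid droplets by lipases, activates them with acyl-CoA synthetases and burns them in mitochondria and peroxisomes, and the glyoxylate cycle lets the worm turn fat into sugar. Nuclear hormone receptors such as NHR-49, the lipase regulator HLH-30, insulin-like peptides and the kinases AMPK and TOR are known to steer this change. Digestive enzymes, yolk and many antibacterial proteins are also made in the intestine.

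The arrays had medians of 35.1 to 37.7 in intensity, with 36.5 in fasting and 36.4 in fed wild type. None of the 77 control probe sets differed by 2-fold between the wild-type arrays, and their changes had an SD of 0.18 on the log2 scale. The corresponding SD was 0.11 between the drsh-1 arrays, 0.15 between those of ain-1, and 0.37 between those of daf-16, where 2 controls passed 2-fold, so the daf-16 pair stood apart. Of 2 drsh-1 probe sets, one was at 17.1 fasting and 14 fed in the drsh-1 mutant, against 185 and 183 in wild type, and the other was higher in the mutant, at 357 and 397, against 68.8 and 68.7. Of 4 daf-16 probe sets, one was at 8.98 and 9.27 in the daf-16 mutant, against 69.5 and 76.4 in wild type, and the other 3 were also lower, at 106 to 311 against 266 to 415. The 3 ain-1 probe sets had 106 to 229 fasting and 56.1 to 123 fed in the ain-1 mutant, against 109 to 237 and 63.8 to 171 in wild type, so they gave no clear check of that label.

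Fasting wild-type animals differed from fed ones in a small share of the transcriptome, and more deeply on the side of loss. Of 22548 probe sets, 408 (1.81%) were at least 2-fold higher in fasting animals and 531 (2.35%) at least 2-fold lower, 939 in all (4.16%). With 1 probe set for each gene, the brightest, and the 30% of probe sets with the lowest mean over the 8 arrays left out (those below an intensity of 15.8), 310 of 11974 genes were higher (2.59%) and 419 lower (3.5%), 729 together (6.09%). The median of these genes was 0.01 and 82.0% of them lay within 0.5 of no change. The asymmetry grew with size: 34 genes were at least 4-fold higher and 136 at least 4-fold lower, 6 and 51 passed 8-fold, and 3 and 23 passed 16-fold.

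These sizes can be set beside the measures of error that the arrays offer. Different probe sets of the same gene had a within-gene SD of 0.16 in their log2 change over 2393 genes. In the fit of the other strains, which includes differences between strains, the median SD of a difference of 2 arrays was 0.22. Of the 149 genes past 2-fold with several probe sets, 131 had all of them at 0.5 or more in the same direction, and none had one at 0.5 or more in the other. The probe set by which a gene was counted is among them. All probe sets read the same 2 arrays, so their agreement does not measure variation between animals, RNA samples or arrays. Probe sets whose name ends in _s_at or _x_at, a mark of shared sequence, made up 43.7% of those past 2-fold and 29.8% of all. Some of them can mix the signals of gene copies, but the suffix alone does not show how many genes a probe set matches. By the annotation, 887 of all 22548 probe sets had several symbols. The share of probe sets past 2-fold depended on brightness. Of the 7572 with a mean intensity between the filter and 100, 1.35% were higher and 1.91% lower. From 100 to 300 these shares were 4.81% and 4.48%, and from 300 to 1000 they were 2.98% and 4.22%. Among the 1174 over 1000, 2.3% were higher and 6.73% lower. The share of higher ones was thus largest from 100 to 300, and that of lower ones over 1000. At the limit of 2-fold, dph-3, sms-2 and R08E3.3 lay just inside with a log2 change of 1.0, whereas T23C6.4 (0.999) and riok-2 (0.998) lay just outside. On the lower side ugt-25 (−1.003) and hmit-1.2 (−1.005) were counted, and nlp-16 (−0.9998) and C52G5.2 (−0.997) were not.

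**Figure D1:**
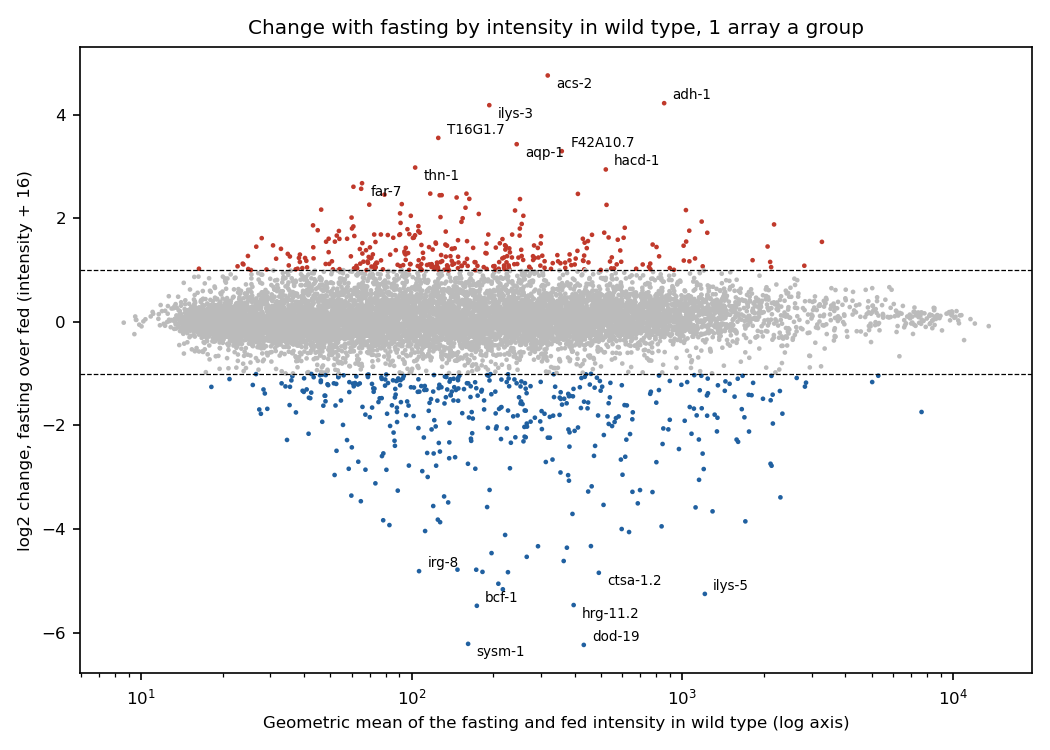
Each point is a gene past the filter on mean intensity, with the geometric mean of its fasting and fed intensity in wild type on a log axis and its log2 change, fasting over fed, on the vertical axis. The dashed lines mark 2-fold. Red points (310) are higher and blue points (419) lower in fasting animals, and the blue points reach farther from 0, to −6.24 for dod-19, than the red ones, to 4.76 for acs-2.

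The gene with the largest gain was acs-2, which encodes an acyl-CoA synthetase that prepares fatty acids for mitochondrial oxidation. Its intensity was 1878 in fasting and 53.9 in fed animals, a 27.1-fold difference on the scale used here (log2 change 4.76). Next came adh-1, an alcohol dehydrogenase, at 3848 fasting against 191 fed (4.23), and the invertebrate-type lysozyme gene ilys-3 at 975 against 38.4 (4.19). These 3 were the only genes past 16-fold upward among the 11974.

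Below them stood T16G1.7, one of a cluster of kinase-like genes, at 524 fasting and 29.96 fed (3.55), and the aquaporin gene aqp-1, whose product passes glycerol and water, at 885 and 67.4 (3.43). The thaumatin-like gene thn-1 was at 350 fasting and 30.3 fed (2.98). A further enzyme of fatty acid oxidation, the hydroxyacyl-CoA dehydrogenase hacd-1, was at 1501 fasting and 181 fed (2.95), and far-7, a gene for a carrier of fatty acids and retinol, at 215 and 20.0 (2.68). The other genes among the 15 with the largest gains were F42A10.7 (3.30), Y6E2A.4 (2.61), T22F3.11 (2.57), F46C5.1 (2.48), the cytochrome P450 gene cyp-34A9 (2.48), F09F7.6 (2.47) and the small heat shock gene hsp-12.3 (2.46). Of these 15 genes, 6 carried only a sequence name.

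The largest losses were steeper. The gene dod-19 was at 42.4 in fasting and 4401 in fed animals (−6.24). For sysm-1, a gene of the response to infection, fasting animals had 12.4, below the filter level, and fed animals 2101 (−6.22). The gene bcf-1 was at 19.3 fasting and 1566 fed (−5.48). In fasting animals sysm-1 and bcf-1 thus lay near or below the filter level of 15.8, so the size of their change depends on the pseudocount. The fasting value of dod-19 was above the array's median of 36.5, but the added 16 makes its change look smaller as well.

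Several other genes with losses above 16-fold kept a signal well above the filter level in fasting animals. The haem-responsive gene hrg-11.2 had 52.3 fasting and 3008 fed (−5.47), and hrg-11.3 had 66.2 and 2004 (−4.62). The lysozyme gene ilys-5 had 188 fasting and 7783 fed (−5.25), and ctsa-1.2, which encodes a cathepsin A-like peptidase, had 84.2 and 2867 (−4.85). Among the 15 largest losses were also C17H12.8 (−5.17), nspg-13 (−5.06), mbug-1 (−4.83), C14C6.5 (−4.83), the infection response gene irg-8 (−4.81), Y105C5B.15 (−4.79), the folate transporter gene folt-2 (−4.79) and Y51F10.7 (−4.54). Of these, irg-8 was below the filter level in fasting animals, at 13.8.

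**Figure D2:**
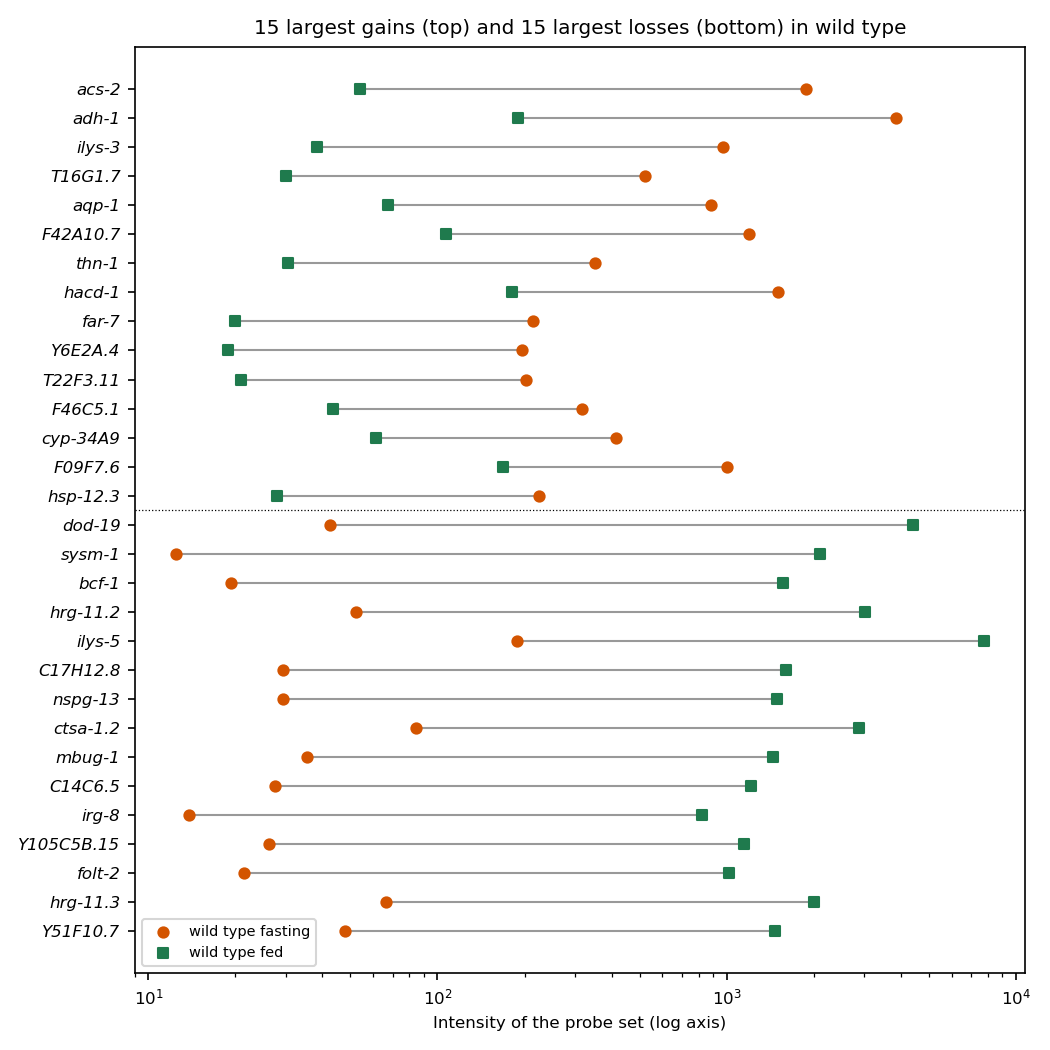
Intensity, on a log axis, of the 15 genes with the largest gain and the 15 with the largest loss in wild type, with the fasting and the fed array as separate points for each gene. The gap is widest for acs-2 (1878 fasting, 53.9 fed) among gains and for sysm-1 (12.4 fasting, 2101 fed) among losses.

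In most lists of energy metabolism few genes passed 2-fold, and in several none did. Of 27 genes of mitochondrial beta-oxidation, 2 were 2-fold higher (acs-2 and hacd-1) and 1 lower, where over all 17118 genes, dim ones included, 1.82% were higher and 2.45% lower (4.26% in all). These shares of all genes are the background for the counts of every list below. The median of the beta-oxidation list was 0.11, against 0.01 over all genes past the filter. The lower member was acdh-1, an acyl-CoA dehydrogenase of short and branched chains and of the propionate shunt, at 367 fasting and 1947 fed (−2.36). None of the 24 genes of peroxisomal oxidation passed 2-fold, and they ranged from pmp-1, a peroxisomal transporter (−0.81), to ech-8 (0.50).

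Lipases moved in both directions. Of 26 measured, 3 were higher and 3 lower. The lysosomal lipase gene lipl-1 was at 215 fasting and 38.1 fed (2.1), lipl-3 at 73.7 and 22.1 (1.23), and lips-10 at 243 and 107 (1.08). Against these, lips-11 was at 15.03 fasting and 455 fed (−3.92), lips-14 at 11.8 and 72.9 (−1.68), and lipl-5 at 144 and 363 (−1.24). Among 17 lipid carriers far-7 and lbp-1 (1603 and 703, 1.17) were higher, whereas far-3 (702 and 2468, −1.79) and far-6 (983 and 2272, −1.2) were lower.

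Of 25 genes that build or modify fatty acids, 1 was higher and 3 were lower. The stearoyl-CoA desaturase gene fat-7, whose product makes oleic acid, was at 126 fasting and 563 fed (−2.02). The acyl-CoA synthetase gene acs-1, which serves branched-chain fatty acids, was at 186 and 1196 (−2.59), and dgat-2, an enzyme of triglyceride synthesis, at 162 and 592 (−1.77). The higher member was fat-3, a desaturase of polyunsaturated fatty acids, at 3079 fasting and 1470 fed (1.06).

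Yolk protein genes differed in their measured change. Of 5 genes, vit-1 alone passed 2-fold, at 408 fasting and 2311 fed (−2.46). The others lay between −0.35 and −0.02, among them vit-6 at 9724 fasting and 12413 fed (−0.35) and vit-5 at 13175 and 13941 (−0.08). These copies share much of their sequence, so that their probe sets may share transcripts. The fed level of vit-5 was 13941 in wild type, 14151 in drsh-1, 13718 in ain-1 and 13525 in daf-16. Its fasting level was 13175, 12858, 10192 and 9741 in the same order. Whether signals this bright show a change in full was not tested. The smaller changes of vit-5 and vit-6 therefore cannot be set directly against that of the dimmer vit-1.

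In central carbon metabolism the glyoxylate enzyme stood out. The gene icl-1, which encodes both glyoxylate cycle enzymes in a single protein, was at 4211 fasting and 1130 fed (1.88), the one gene past 2-fold among 6 of the glyoxylate cycle and gluconeogenesis, whose median was 0.57. The phosphoenolpyruvate carboxykinase gene pck-1, at 577 and 340 (0.74), did not pass, and the fructose bisphosphatase gene fbp-1 was at 630 and 813 (−0.36). In the citrate cycle, 1 of 26 genes passed, the isocitrate dehydrogenase gene idh-2 at 389 fasting and 135 fed (1.42), with a list median of 0.25. None of 16 glycolysis genes did (median 0.19), nor any of 36 genes of the respiratory chain and ATP synthase (median 0.34), although 32 of these 36 were above 0 and ucr-2.1 reached 0.78.

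Carbohydrate, folate and amino acid genes that passed 2-fold were mostly lower. The alpha-glucosidase genes aagr-1 (105 fasting, 553 fed, −2.23) and aagr-2 (653 and 2333, −1.81) were lower, and no other of the 15 glycogen and trehalose genes passed. Of 17 folate and methionine cycle genes, folt-2 was at 21.4 fasting and 1016 fed and cth-2, a cystathionine gamma-lyase, at 345 and 1083 (−1.61). In the breakdown of amino acids and propionate, 3 enzymes of the kynurenine route of tryptophan were lower, tdo-2 (139 and 492, −1.71), kynu-1 (183 and 675, −1.80) and haao-1 (32.2 and 107, −1.36), and the propionyl-CoA carboxylase gene pcca-1 was just past 2-fold higher (1327 and 652, 1.01).

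Nutrient carriers followed the same mixed course. Of 24 peptide, sugar and amino acid carriers 1 was higher, the amino acid transporter gene aat-3 (189 fasting, 82.8 fed, 1.05), and 3 were lower. The proton-coupled inositol transporter gene hmit-1.1 was at 12.8 fasting and 279 fed (−3.36), and the sugar transporter gene swt-6 at 140 and 721 (−2.24).

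**Figure D3:**
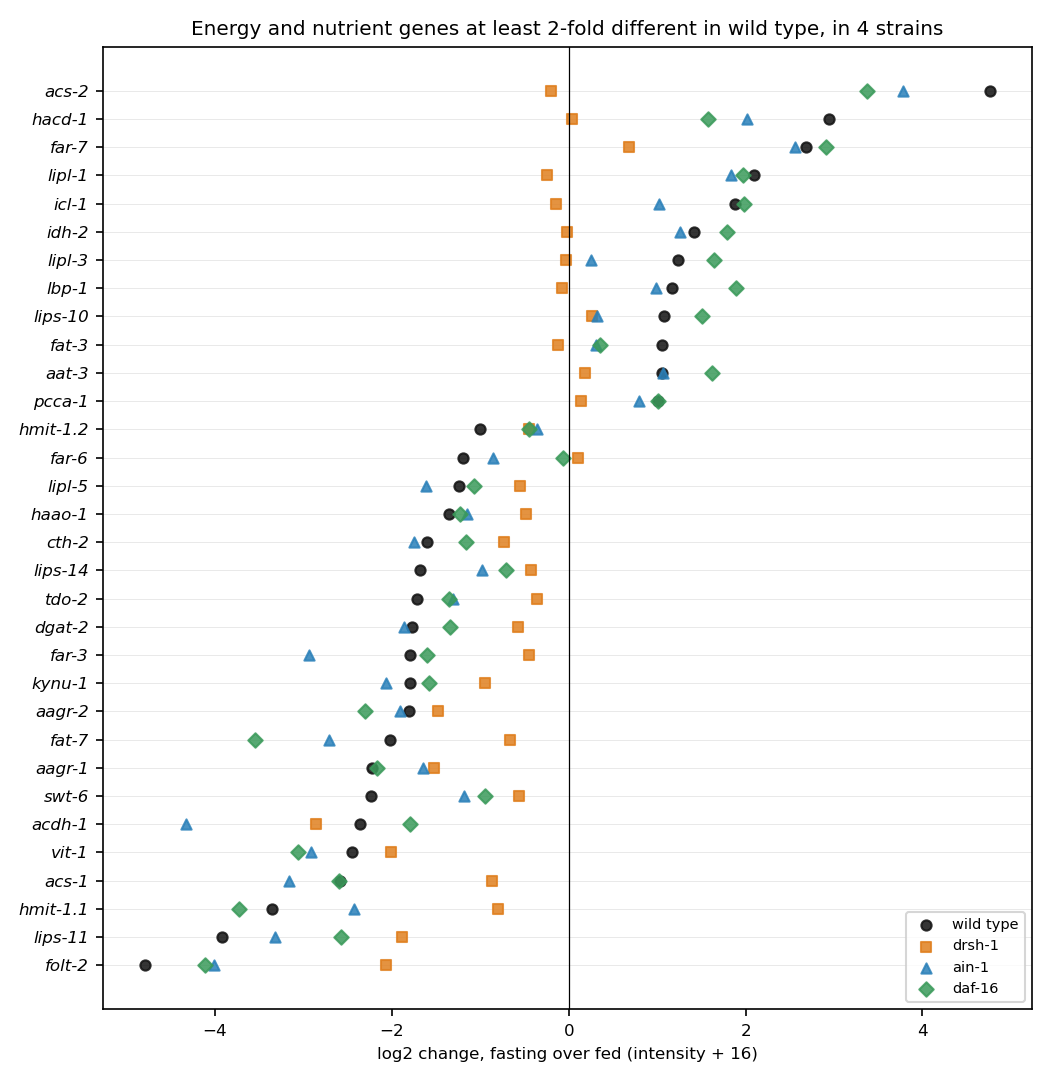
Genes of the energy lists that were at least 2-fold different in wild type, each as a row, with its log2 change, fasting over fed, in wild type and in the 3 mutants. The positive and negative values of wild type span acs-2 at 4.76 to folt-2 at −4.79, and for acs-2 the drsh-1 change is −0.20.

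Digestive and antibacterial genes held some of the steepest losses, although most members of each list did not pass 2-fold. Of 33 digestive and lysosomal proteases, 8 were lower and none higher (24.2% lower, against 2.45% of all genes), with a median of −0.65. Besides ctsa-1.2 the aspartyl protease gene asp-17 was at 28.4 fasting and 507 fed (−3.56). The protease with the highest change, cpr-2, had 57.9 and 26.0 (0.82). Of the 19 subunits of the V-ATPase, the proton pump that acidifies lysosomes, 1 passed 2-fold, the intestinal subunit gene vha-6 at 248 and 632 (−1.29), and the median was −0.09.

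Among 16 lysozymes 6 were lower and 2 higher, and the median of −1.01 was the only list median past 2-fold. The lower ones held ilys-5, lys-2 (148 fasting, 2722 fed, −4.06), lys-7 (704 and 7530, −3.39) and lys-1 (517 and 2559, −2.27). On the other side stood ilys-3 and ilys-2, the second at 42.98 fasting and 12.01 fed (1.07). Lysozymes of the same invertebrate type, ilys-3 and ilys-5, thus lay at opposite ends of the array's changes.

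Caenopores, small pore-forming proteins that kill bacteria, showed 4 of 18 lower (22.2%, against 2.45% of all genes) and none higher. Among the lower ones were spp-4 at 48.9 fasting and 387 fed (−2.63) and spp-18 at 234 and 1122 (−2.19). C-type lectins, which bind sugars and are often induced by infection, had 17 of 220 lower (7.73%) and 3 higher (1.36%, against 1.82% of all genes). Their median was −0.07. The extremes were clec-41 at 75.3 fasting and 1861 fed (−4.36), clec-85 at 143 and 1827 (−3.53), and clec-266 at 606 and 104.1 (2.37). Of 72 further genes known from the response to infection or from daf-16 studies, 13 were lower, led by dod-19 and sysm-1, and 4 were higher, among them thn-1 and dod-3 (1179 and 233, 2.26).

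Among the detoxification genes past 2-fold, lower ones outnumbered higher ones, as they did over all genes (2.45% lower, 1.82% higher). The shares were 13.3% lower and 0% higher for glutathione S-transferases, and 14.1% and 3.12% for UDP-glucuronosyltransferases. For cytochromes P450 they were 5.48% and 2.74%. Of 45 glutathione S-transferases 6 were lower and none higher, with gst-10 at 25.6 fasting and 235 fed (−2.59). Of 64 UDP-glucuronosyltransferases 9 were lower, with ugt-26 at 276 and 1397 (−2.27), and 2 higher, ugt-1 (229 and 43.1, 2.05) and ugt-2 (115 and 47.1, 1.05). Cytochromes P450 had 4 of 73 lower and 2 higher: cyp-14A5 was at 411 fasting and 1761 fed (−2.06), and cyp-37B1 at 118 and 28.1 (1.61). The list medians (−0.08, −0.02 and 0.14) stayed close to that of all genes.

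Of 48 ABC transporters, 3 were lower and 1 higher, the P-glycoprotein genes pgp-1 (55.2 fasting, 272 fed, −2.02) and pgp-4 (194 and 79.0, 1.15) being the extremes. Among 29 genes of oxidative defence only the glutathione peroxidase gene gpx-5 passed (144 and 563, −1.85). Metal and haem genes held the metallothionein gene mtl-1, at 1171 fasting and 320 fed (1.82), and the ferritin gene ftn-1, at 1134 and 510 (1.13), on the higher side, and 5 of 39 on the lower side, led by hrg-11.2 and hrg-11.3. The median of this list was 0.03 and turned to −0.02 under quantile normalization.

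Small heat shock and HSP70 genes included 5 of 21 that were higher and 2 that were lower, with a median of 0.11. Besides hsp-12.3, the higher ones were hsp-16.2 (186 fasting, 26.1 fed, 2.27), hsp-16.41 (68.2 and 11.4, 1.62), hsp-70 (59.97 and 16.6, 1.22) and hsp-16.20 (45.8 and 12.3, 1.13). In contrast hsp-17 was at 123 fasting and 1025 fed (−2.91) and hsp-43 at 329 and 746 (−1.14). The heat-inducible members were dim in fed animals. Chaperones and folding enzymes of the endoplasmic reticulum had 0 of 18 past 2-fold and a median of 0.28.

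Few genes of protein and organelle turnover passed 2-fold. Of 31 autophagy genes 2 were higher, epg-2, which encodes a receptor for protein aggregates, at 755 fasting and 251 fed (1.53), and atg-16.2 at 535 and 235 (1.13), and the median was 0.30. No proteasome subunit of 33 passed 2-fold, yet 32 lay above 0, between rpn-11 at 0.49 and the single negative one, pbs-3, at −0.07.

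The adaptor genes of SCF ubiquitin ligases gave the highest share of gains among the lists. Of 19 SKP1-related genes 7 were higher (36.8%, against 1.82% of all genes) and none lower, with a median of 0.71. The values were 848 fasting and 253 fed for skr-10 (1.68), 957 and 298 for skr-13 (1.63), and 1697 and 601 for skr-9 (1.47). Several of these copies are near-identical, so that their probe sets may share transcripts. The opposite end was skr-3 at 357 and 635 (−0.80). Of 310 F-box genes, whose products choose the targets of the same ligases, 7 were higher, led by fbxb-3 (142 and 38.1, 1.54). This share of 2.26% was close to the 1.82% of all genes. On the lower side were 2 (0.645%, against 2.45% of all genes), fbxa-60 (160 and 441, −1.38) and fbxa-128 (106 and 282, −1.28).

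The machinery of translation showed no gene past 2-fold in either direction: 0 of 76 ribosomal proteins, 0 of 59 mitochondrial ribosomal proteins, 0 of 40 translation factors, 0 of 33 aminoacyl-tRNA synthetases and 0 of 17 nucleolar genes. Their medians ran from 0.01 for the synthetases to 0.23 for the nucleolar genes, and 63 of the 76 ribosomal protein genes lay above 0, within a range of −0.27 (rpl-7A) to 0.35 (rpl-29). The median of the synthetases turned to −0.04 under quantile normalization.

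**Figure D4:**
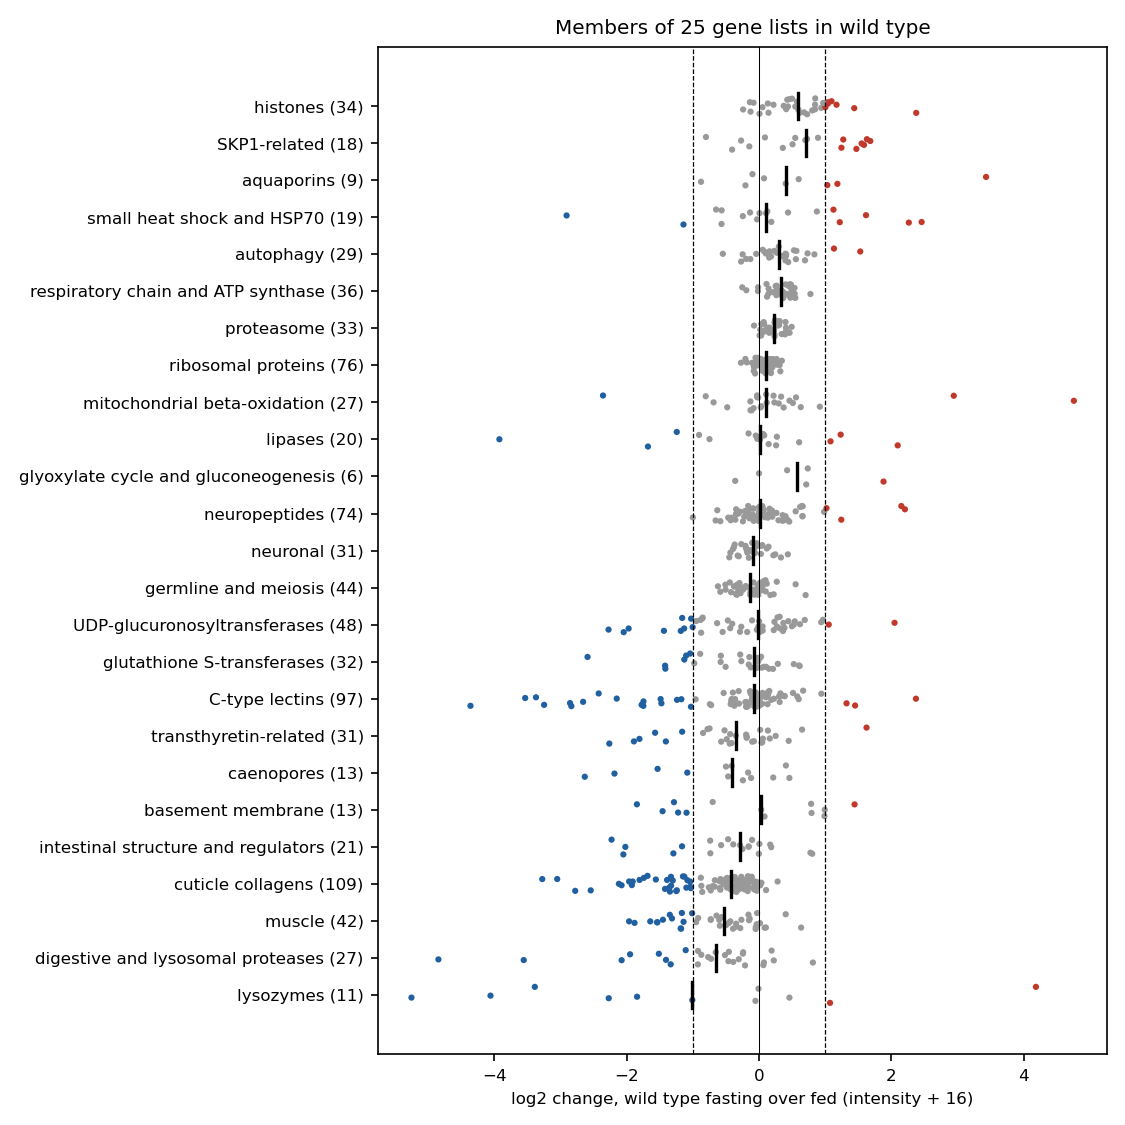
A choice of 25 gene lists in wild type, each as a row with its number of genes past the filter, showing the log2 change, fasting over fed, of each of these genes as a point and their median as a bar. Dashed lines mark 2-fold, and red and blue points lie past it. Lysozymes have the lowest median (−1.01) and SKP1-related genes the highest (0.71), and the ribosomal protein genes stay within 2-fold.

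Numbered cuticle collagens (col genes) and listed muscle genes past 2-fold were lower without exception, while body shape and basement membrane genes were divided. Of 128 col genes, which encode collagens of the exoskeleton, 30 were lower (23.4%, against 2.45% of all genes) and none higher. Of the 109 past the filter, 5 lay above 0, at most at 0.28 for col-121. The steepest were col-159 at 137 fasting and 1468 fed (−3.28) and col-160 at 393 and 3376 (−3.05). Collagens and cuticle genes known from body shape mutants were divided, dpy-14 (119.1 and 41.7, 1.23) and dpy-17 (322 and 151, 1.02) being higher and dpy-13 (881 and 2079, −1.22) and dpy-4 (646 and 1521, −1.21) lower.

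Basement membrane genes separated by protein. The type IV collagen genes let-2 (321 fasting, 908 fed, −1.46) and emb-9 (386 and 923, −1.22), the perlecan gene unc-52 (80.2 and 330, −1.85), the nidogen gene nid-1 (90.6 and 244, −1.29) and the SPARC gene ost-1 (845 and 1823, −1.1) were lower. The laminin gamma gene lam-2 was higher, at 205 fasting and 65.3 fed (1.44), and the laminin beta gene lam-1 was just below 2-fold, at 386 and 186 (0.99). The median of the 13 genes, 0.03, therefore described neither side, and it turned to −0.02 when the probe sets of a gene were averaged.

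Of 42 muscle genes 13 were lower (31%, against 2.45% of all genes) and none higher, with a median of −0.53. The troponin T gene tnt-2 was at 129 fasting and 549 fed (−1.96) and the calponin-like gene clik-1 at 335 and 1275 (−1.88). At the other end pat-6, an attachment gene, had 326 and 204 (0.64). Of 22 genes of intestinal structure and regulation 5 were lower, among them the brush border actin gene act-5 (116 and 601, −2.23) and the intermediate filament genes ifb-2 (46.3 and 242, −2.05) and ifc-2 (96.4 and 440, −2.02). The peptide transporter gene pept-1, also of the intestine, was at 103 and 52.3 (0.81).

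Tissue markers, some of which are also members of these lists (tnt-2, act-5 and ifb-2 among them), were summed as well. Their intensity was 2356 fasting and 5721 fed for 8 body wall muscle markers (median change −0.84). It was 5100 and 7612 for 7 intestinal markers (−0.73), and 1464 and 2451 for 6 epidermal markers (−0.33). Most of the intestinal sum came from asp-1, at 4348 fasting and 5700 fed (−0.39). Among the epidermal markers the largest change was that of col-19, itself a col gene, at 465 fasting and 1244 fed (−1.39). The markers elt-3 (−0.55) and rol-6 (−0.54) changed less, and lin-26 (−0.13), dpy-7 (−0.11) and bli-1 (−0.02) little. The intestinal marker opt-2 was not found under that name, and pept-1, which was higher, is not among the markers. Changes were smaller for 8 neuronal markers (2740 and 2800, median −0.18), 6 germline markers (5856 and 6545, −0.17) and 6 oocyte markers (15380 and 17699, −0.20). The 3 sperm markers found summed to 86.8 and 116 (−0.16). None of the markers found was below the filter, and the markers' part in the losses of collagen, muscle and intestinal genes was not tested.

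Among signalling genes the insulin-like peptide gene ins-7, an agonist of the insulin receptor made in the intestine and neurons, was at 33.9 in fasting and 352 in fed animals (−2.88). It was the 1 gene past 2-fold of 24 insulin-like peptides. Of 86 neuropeptide genes 4 were higher, nlp-39 (370 fasting, 67.5 fed, 2.21), nlp-51 (536 and 108, 2.15), nlp-99 (463 and 186, 1.24) and nlp-7 (181 and 81.2, 1.02), and none was lower. The median of that list was 0.02.

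Transcription factors and kinases were next examined at the level of their own mRNA. None of 26 factors, most of them known from fasting or ageing, passed 2-fold. The lipase regulator hlh-30 was at 298 fasting and 185 fed (0.64), skn-1 at 581 and 377 (0.61), and blmp-1 at 20.5 and 56.8 (−0.99). Of 255 nuclear hormone receptors 1 passed, nhr-2 at 402 and 184 (1.07), and nhr-80, a regulator of desaturases, was at 37.6 and 71.7 (−0.71). None of 20 AMPK and TOR genes passed, with the AMPK gamma subunit gene aakg-4 highest at 0.91.

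The microRNA machinery, the subject of the study's mutants, had 0 of 16 genes past 2-fold in wild type and a median of 0.11. The Argonaute gene alg-2 was at 548 fasting and 350 fed (0.62), and ain-1 itself at 203 and 132 (0.57). The lowest was cgh-1, a helicase of RNA granules, at 2186 and 2657 (−0.28).

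Germline genes mostly lay within 2-fold. None of 44 germline and meiosis genes and none of 51 sperm genes passed, with medians of −0.13 and −0.14. Of 30 oocyte and eggshell genes 1 passed, the caveolin gene cav-1 at 2757 fasting and 1198 fed (1.19), and the median was −0.12. Of 73 genes of DNA replication and the cell cycle 1 passed, the cyclin D gene cyd-1 at 214 and 53.6 (1.72).

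Of 35 histone genes measured 7 were higher (20.0%, against 1.82% of all genes) and none lower. The median was 0.58, and 30 of the 34 past the filter lay above 0. The linker histone gene hil-1 was at 407 fasting and 65.4 fed (2.38) and the histone H3.3 gene his-71 at 130 and 37.8 (1.44). Core histone genes are present in many near-identical copies, and the array's labelling from poly(A) tails reads messages without such tails poorly.

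Among smaller families, aquaporins had 3 of 10 higher (30%, against 1.82% of all genes). These were aqp-1, aqp-2 (1536 fasting, 667 fed, 1.19) and aqp-7 (808 and 387, 1.03). Of 7 genes of the T16G1 cluster, T16G1.7 was higher, whereas T16G1.5 was at 14.4 fasting and 120 fed (−2.16). Transthyretin-related genes, which encode secreted proteins, had 6 of 40 lower (15%, against 2.45% of all genes) and 1 higher (2.5%, against 1.82%). Among the lower ones was ttr-35 at 91.4 and 499 (−2.26), and the higher one was ttr-50 at 1082 and 340 (1.63). Of 28 genes of secreted SCP/TAPS proteins 1 passed, scl-2 at 2207 and 481 (2.16). Hedgehog-related genes had 1 of 80 on each side, wrt-10 (201 and 81.2, 1.16) and grd-14 (65.3 and 213, −1.49). None of 31 neuronal genes and none of 1275 chemoreceptor genes passed, with 224 of the chemoreceptor genes past the filter.

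Most genes past 2-fold had no neighbour that was so too. Of the 310 higher genes 35 (11.3%) had a measured gene next to them on either side that was also 2-fold higher, where 5.08% of all 11974 genes had such a neighbour. Of the 419 lower genes 77 (18.4%) had a lower neighbour, where 6.76% of all genes had one. Of runs of 3 or more, 1 was higher, made of skr-13, skr-9 and skr-8 (1.47 to 1.63), and 5 were lower. The longest held F01D5.1, F01D5.2, F01D5.3, F01D5.5 and F01D5.8, between −4.04 for F01D5.2 (21.1 fasting, 594 fed) and −1.07 for F01D5.8 (33.1 and 86.7). Another held C34H4.2 (57.8 and 511, −2.84), C34H4.1 (31.1 and 306, −2.78) and Y41D4B.18 (18.03 and 64.7, −1.25). Neighbours in such runs can be copies of each other that share probe sequence.

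The other 6 arrays give the same measure in other animals. Their changes did not enter the 2-fold rule, but their mean intensity, with that of wild type, did enter the filter and the choice of probe set. Of the 310 genes 2-fold higher in wild type, 2 (0.645%) were so in drsh-1, 195 (62.9%) in ain-1 and 252 (81.3%) in daf-16, where 0.0334%, 2.72% and 7.12% of all genes past the filter were. Their median change was 0.07 in drsh-1, 1.16 in ain-1 and 1.71 in daf-16, against 1.26 in wild type itself, where it was chosen to be over 1. Of the 419 genes 2-fold lower in wild type, 116 (27.7%) were so in drsh-1, 323 (77.1%) in ain-1 and 304 (72.6%) in daf-16, where 1.11%, 3.61% and 5.12% of all genes were. Their medians were −0.58, −1.5 and −1.41.

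In drsh-1 the share was thus 0.645% of the higher and 27.7% of the lower set. The difference between the sets was not tested. Fed levels of genes with large gains differed too. Fed drsh-1 had 5308 for ilys-3, 225 for thn-1 and 244 for acs-2, against 38.4, 30.3 and 53.9 in fed wild type. For hacd-1 it had 167 against 181, and for F42A10.7 57.7 against 107. A small change in drsh-1 therefore does not mean a level like that of fed wild type, and the part of fed levels was not tested. The ain-1 pair showed most of both sets, and its controls did not stand apart.

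Limma, fitted to the 3 mutants with strain as a block and Benjamini-Hochberg adjustment, tests the food effect in arrays other than the wild-type ones. It called 3 probe sets higher (0.019%) and 105 lower (0.665%) at an adjusted p under 0.05. As genes these were 3 higher (0.0251%) and 84 lower (0.702%), and they held 2 of the 310 genes higher and 81 of the 419 lower in wild type. The lower genes called included ctsa-1.2 (log2 change −4.45 ± 0.28, SE, adjusted p = 0.013), ilys-5 (−4.86 ± 0.33, adjusted p = 0.013) and hrg-11.2 (−4.46 ± 0.39, adjusted p = 0.017). In contrast acs-2 averaged 2.32 ± 0.75 and was not called (adjusted p = 0.25), with changes of −0.20 in drsh-1, 3.77 in ain-1 and 3.37 in daf-16.

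Without the drsh-1 pair the fit rests on ain-1 and daf-16, with 1 residual degree of freedom and a prior of 15.99 taken from the spread of all probe sets. It then called 1570 genes higher (13.1%) and 1206 lower (10.1%), and among the wild-type genes 286 of 310 (92.3%) higher and 401 of 419 (95.7%) lower. None of the 729 was called in the opposite direction. In these 2 strains limma gave acs-2 a gain of 3.57 ± 0.23 (adjusted p = 8.0e-09), adh-1 one of 5.02 ± 0.25 (adjusted p = 5.2e-10) and aqp-1 one of 2.77 ± 0.24 (adjusted p = 3.2e-07). The gene dod-19 fell by 5.37 ± 0.23 (adjusted p = 6.8e-11). The 2 arrays of a strain give 1 difference each. With 1 residual degree of freedom and a prior of 15.99, these p-values rest mainly on the spread pooled over all probe sets. A gene's own spread between the 2 strains enters them little. The pooled spread may be technical, and the daf-16 pair is the one whose controls stood apart.

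Some wild-type genes were not called in the fit of ain-1 and daf-16. The thaumatin-like gene thn-1 changed by 0.24 ± 0.14 there (adjusted p = 0.23), with 0.59 in drsh-1, against 2.98 in wild type. For fat-3 the value was 0.33 (adjusted p = 0.14), against 1.06 in wild type, and for lam-2 it was 0.61 ± 0.22 (adjusted p = 0.057), against 1.44.

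**Figure D5:**
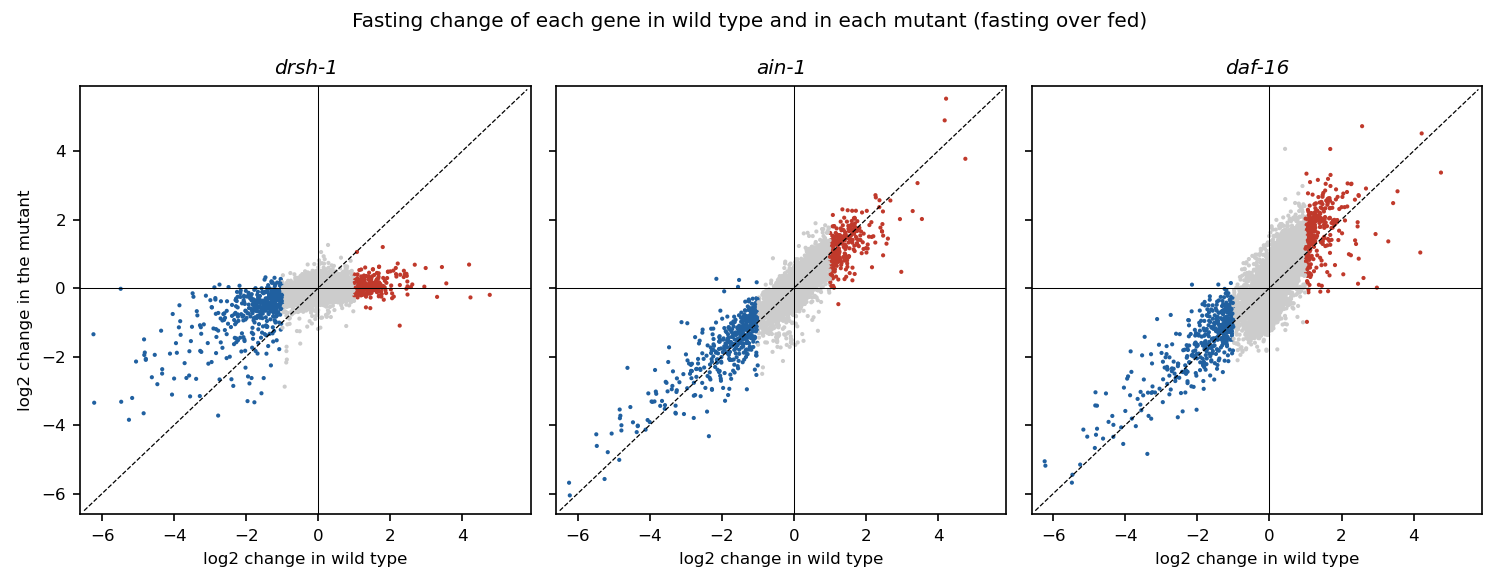
Log2 change, fasting over fed, in drsh-1, ain-1 and daf-16 (vertical axes) against that in wild type (horizontal axes) for the genes 2-fold higher (red, 310) or lower (blue, 419) in wild type and the other genes past the filter (grey), with the dashed line of equal change. Higher genes have a median of 0.07 in drsh-1, 1.16 in ain-1 and 1.71 in daf-16, and lower genes of −0.58, −1.5 and −1.41.

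The difference between wild type and the mean of the 3 mutants was fitted over all 8 arrays with strain as a block and 2 residual degrees of freedom. As wild type has no replicates, this fit assumes that its change varies as the changes of the mutants do among themselves. Limma called 0 of 15783 probe sets, where 162 had an unadjusted p under 0.05 and the smallest adjusted p was 0.9999. The genes with the largest differences upward were thn-1 (2.63), acs-2 (2.44), F42A10.7 (2.18) and Y6E2A.4 (2.00), none of them called. Downward they were K08D8.5 (−2.41), oac-32 (−2.33), C17F4.7 (−2.27) and clec-174 (−2.25).

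Against ain-1 and daf-16 alone the residual rests on 1 degree of freedom between 2 strains, with a prior of 13.63, and takes the single wild-type pair to vary as these strains do. Under that assumption 13 probe sets were called, among 510 with an unadjusted p under 0.05. They held thn-1 (difference 2.74, adjusted p = 0.0023), K08D8.5 (−2.17, adjusted p = 0.0045), oac-32 (−1.89, adjusted p = 0.018), C17F4.7 (−1.73, adjusted p = 0.028) and clec-174 (−2.34, adjusted p = 0.031). In wild type K08D8.5 was at 18.8 fasting and 286 fed, oac-32 at 13.6 and 310, and C17F4.7 at 442 and 6604. The C-type lectin gene clec-174 was at 73.4 fasting and 381 fed in wild type, whereas it lay between 70.5 and 88.3 on all 4 arrays of ain-1 and daf-16. In drsh-1 it was at 65.1 fasting and 69.3 fed. Only the single fed wild-type array thus stood apart, so a difference between strains cannot be told from a deviation of that array. The probe set of clec-174 is also of the kind that can match several genes.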

How the data were processed

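Trizol extracts of whole animals were labelled by 3′ in vitro transcription with biotin and hybridised to Affymetrix C. elegans arrays, 1 for each strain and food, per the labels' protocols. The authors deposited 1 table of array intensity on a linear scale; the method of summarising, background treatment and normalization was not given in the sources used here, and the values were used as deposited. Its 77 control probe sets served as quality values.

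Names came from the platform annotation, set against RefSeq genes of assembly WBcel235 by Entrez number: 20766 of 22548 probe sets had 1 symbol, 887 several and 895 none, and 20701 were matched. Each of 17118 genes was represented by its probe set with the highest mean over the 8 arrays. Changes are differences of log2(intensity + 16). Sizes were counted at 2-fold; the table was handled in Python 3.11.15 with pandas 2.3.3 and numpy 2.4.6. Limma 3.58.1 in R 4.3.3 (lmFit, eBayes with trend) was fitted to the 15783 probe sets past the 30% filter (residual degrees of freedom 2, prior 3.885 for the 3 mutants) and was checked on simulated data. The spread behind its p-values is only that between single arrays, and may be technical.

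Named genes were the 15 with the largest gain and the 15 with the largest loss, up to 4 of each of 60 lists, up to 4 that differed most from the other strains each way, and members of runs of 3 or more neighbours. Further members were named, after their values were seen, where few of a list passed 2-fold. The members and lists were chosen with earlier results of these data known, and lists that had taken in wrongly matched names were corrected after values were seen; no list was tested. Alternatives were other pseudocounts, filters, scalings and thresholds, an average over probe sets, no trend, and leaving out a strain.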

Additional observations from a re-analysis of the deposited data

Results flagged for a closer look

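For dod-3, a gene named from insulin signalling studies, wild type and drsh-1 moved in opposite directions past 2-fold. Its intensity was 1179 in fasting and 233 in fed wild type (log2 change 2.26), and 160 and 361 in drsh-1 (−1.1), so the changes lay 3.36 apart. In ain-1 the change was 1.33 and in daf-16 0.96. With 1 array a group the difference between the 2 strains was not tested.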

How the results depend on the processing

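In wild type the 408 higher and 531 lower probe sets became 621 and 640 with a pseudocount of 1, 194 and 370 with 64, 380 and 554 under quantile normalization, 402 and 533 after centring, 407 and 531 with the 30% filter, 386 and 509 with a 50% filter, and 99 and 261 at 3-fold. The counts thus rest on the pseudocount and the threshold. Of the 275 genes named by the rule, 142 passed 2-fold: 20 of these fell short with a pseudocount of 64, 4 with the mean over a gene's probe sets, 3 under quantile normalization and 0 otherwise. The lysozyme median no longer reached 2-fold with a pseudocount of 64.

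In the 3 mutants limma's 3 higher and 105 lower probe sets became 1 and 123 with a pseudocount of 1, 1 and 53 with 64, 3 and 113 without or with a stricter filter, 2 and 93 under quantile normalization and 0 and 12 without the trend. Without drsh-1 they were 2120 and 1526, without ain-1 0 and 0 (187 and 578 at an unadjusted p under 0.05), and without daf-16 0 and 1 (218 and 697). The 0 probe sets that differed in wild type became 13 without drsh-1 and were 0 under the others. Leaving out 1 strain takes away 1 of 2 residual degrees of freedom. Fasting and fed were paired by strain in these fits. Of replicates within groups, no paired analysis was possible because each group has 1 array. Depth has no counterpart here; 6765 probe sets below the filter had 1 change past 2-fold, and losses that end near the dim end of the array are limited by the pseudocount.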

Other observations

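Families of genes that share a symbol prefix, 165 with at least 10 genes, showed patterns outside the lists. The nspg genes had the highest share of members past 2-fold: 8 of 12 were lower (66.7%, against 2.45% of all genes) and none higher. Their median was −3.18 over the 10 past the filter. Beside nspg-13 the lower ones included nspg-9 at 95.04 fasting and 2219 fed (−4.33), nspg-6 at 142 and 2511 (−4.001) and nspg-7.1 at 356 and 4689 (−3.66), chosen after their values were seen. In ain-1 these 3 changed by −4.02, −3.91 and −3.30, and in drsh-1 by −2.37, −2.64 and −2.63.

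Galectins, which bind galactose-containing sugars, had 5 of 12 lower (41.7%, against 2.45% of all genes) and 1 higher (8.33%, against 1.82%). Their median was −0.57, and their members, too, were named after their values were seen. The gene lec-6 was at 206 fasting and 3411 fed (−3.95), lec-9 at 101 and 1520 (−3.71), lec-10 at 125 and 1163 (−3.07), lec-8 at 441 and 3261 (−2.84) and lec-11 at 232 and 768 (−1.66). The higher one was lec-2, at 3434 and 1241 (1.46). Limma over the 3 mutants called lec-6 (−2.52 ± 0.31, SE, adjusted p = 0.036), lec-9 (−3.22 ± 0.35, adjusted p = 0.027) and lec-10 (−1.92 ± 0.23, adjusted p = 0.034) lower, while lec-2 averaged 1.15 ± 0.32 and was not called (adjusted p = 0.24).

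Of 11 acid phosphatase genes (pho) 3 were lower (27.3%, against 2.45% of all genes) and none higher. Of 32 sdz genes 4 were higher (12.5%, against 1.82% of all genes) and 1 lower (3.12%, against 2.45%).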
